A study of Mus musculus with 6 samples.

Results

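Histone and DNA modifying enzymes are the proteins that add and remove acetyl and methyl groups on histones and methyl groups on DNA. The genes described here are the histone deacetylases (*Hdac*), sirtuins (*Sirt*), lysine demethylases (*Kdm*), lysine acetyltransferases (*Kat*), DNA methyltransferases (*Dnmt*), Tet dioxygenases (*Tet*), SET domain proteins (*Setd*) and the *Ezh1*, *Ezh2*, *Eed* and *Suz12* genes of Polycomb repressive complex 2 (PRC2). They were chosen by gene symbol alone, though earlier results of these data were known. They comprise 61 of the 18820 genes that have a probe set of their own on the array. There are 11 *Hdac*, 7 *Sirt*, 18 *Kdm*, 6 *Kat*, 4 *Dnmt*, 3 *Tet*, 8 *Setd* and 4 PRC2 genes.

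Many of these enzymes help set how open a gene is, while some act on other molecules. Acetylation of histone tails goes with active genes, and deacetylases reverse it, mostly as parts of corepressor complexes such as Sin3, NuRD, CoREST and NCoR. Trimethylation of lysine 27 on histone H3 by PRC2 and methylation of CpG sites by DNA methyltransferases go with silenced genes. In epithelial-mesenchymal transition (EMT), repressors of the Snail and Zeb families are known to bring several of these enzymes to epithelial genes such as E-cadherin, among them the class I deacetylases, the demethylase *Kdm1a* and PRC2.

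Long-term EMT cells were EpRas cells kept for 14 days in 2 ng/ml of recombinant TGF-β1, and control cells were EpRas cells left without it (n = 3 arrays per group). EpRas is a single tumor cell line of BALB/c background, made by stable overexpression of Ha-Ras in EpH4 mouse mammary epithelial cells, so that both groups carry the oncogene. Both groups were grown in DMEM/F12 medium with fetal calf serum, antibiotics and glutamine. The values are log2 expression values from Affymetrix MoGene arrays, 1 array for each sample. The arrays are called triplicates, with no word on whether each had its own culture, and the p-values therefore cover the spread among these arrays, part or all of which may be technical.

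The epithelial markers *Cdh1*, *Epcam*, *Ocln* and *Cldn7* were lower in long-term EMT cells by 3.19 to 5.09 on the log2 scale, while *Krt8*, *Krt18* and *Krt19* had log2 fold changes of 0.00, 0.01 and 0.64. *Krt19* was 7.07, 5.15 and 5.01 in long-term EMT cells, against 5.25, 5.07 and 4.98 in control cells, so that 1 array carried its value. Of 7 mesenchymal markers 4 passed, *Zeb1*, *Zeb2*, *Tnc* and *Sparc*, higher by 0.74, 1.34, 3.27 and 0.65. The others, *Cdh2*, *Fn1* and *Vim*, had log2 fold changes of 0.46, 0.17 and 0.10. None of 5 fibroblast markers passed, with log2 fold changes between -1.76 (*Dcn*) and 0.05 (*Lum*), 3 of them negative. Of 5 leukocyte and macrophage markers none passed. *Ptprc*, *Csf1r*, *Adgre1* and *Lyz2* had group means between 3.85 and 4.89, near the background level of 4.475, with *Lyz2* at 3.85 in long-term EMT cells and 4.43 in control cells, and the lysosomal gene *Cd68*, which other cells also express, had means of 8.92 and 8.65. This level is the 95th percentile of the mean values of 1006 olfactory receptor probe sets, genes that mammary cells are not known to use. Control replicate 1 stood apart from the other arrays. It correlated at 0.987 and 0.984 with control replicates 2 and 3 over all probe sets, against 0.995 between these.

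Genes were taken to pass when limma gave an adjusted p below 0.05 together with a difference of more than 1.5-fold (0.58 on the log2 scale), and "rose" and "fell" are used of such genes only. None of the 61 enzyme genes passed, 0 higher and 0 lower. Over all probe sets 0.993% rose and 0.928% fell, and of the 13418 genes above background 4.14% passed in either direction, so that the count of 0 lies near the background and says nothing particular about these families. At an unadjusted p under 0.05, 4 of the enzyme genes were higher and 6 lower in long-term EMT cells, where 23.1% of the genes above background had such a p. The smallest adjusted p among the enzyme genes was 0.0981.

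The sizes of the differences were small. The log2 fold changes of the 61 genes ran from -0.49 to 0.44, with a median of 0.00 and a median size of 0.09. Among the 57 of them that lay above background in at least one group, the median size was 0.12, against 0.15 over all genes above background. The 95% confidence interval of the log2 fold change lay within 1.5-fold either way for 45 of the 61 genes and within 2-fold for 60 of them. Of the 57 above background, 71.9% had an interval within 1.5-fold and 98.2% within 2-fold, against 66.1% and 87.3% of all genes above background. The intervals are for 1 gene at a time. The exception at 2-fold was *Kdm7a*, whose interval reached 1.09.

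**Figure D1:**
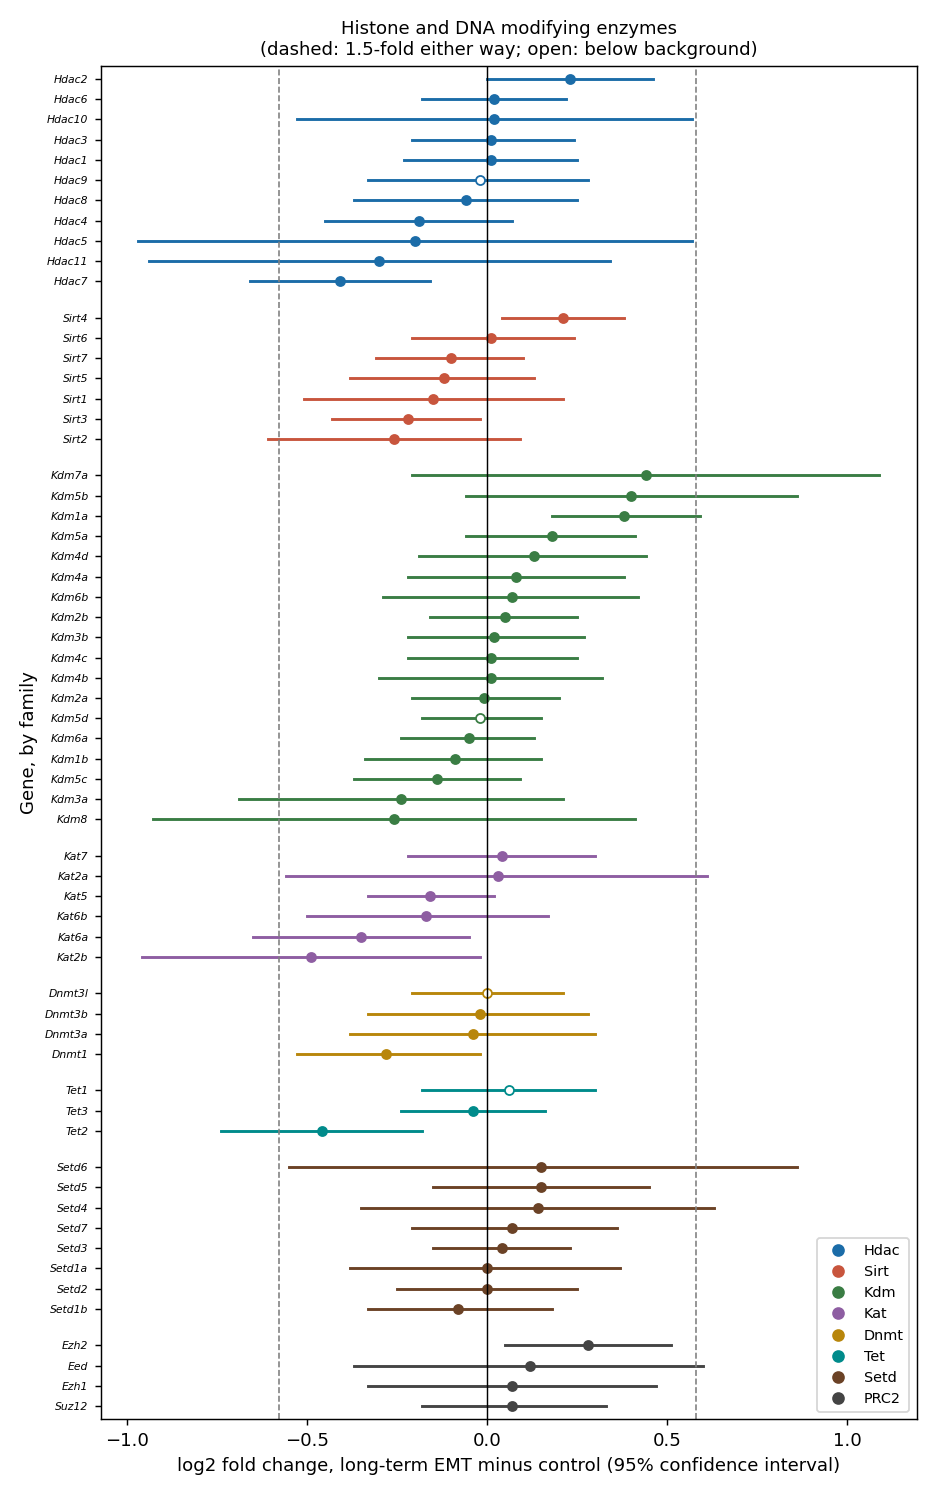
Log2 fold change of each of the 61 enzyme genes, long-term EMT minus control (points), with its 95% confidence interval from limma (lines), ordered by value within each family. Open points are the 4 genes below background in both groups, and dashed lines mark 1.5-fold either way. No point reaches a dashed line, and 45 of the 61 intervals lie between the lines.

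In 12 of the 61 genes the long-term EMT arrays lay beyond all control arrays, 4 higher (*Kdm1a*, *Ezh2*, *Hdac2* and *Sirt4*) and 8 lower (*Tet2*, *Hdac7*, *Kat6a*, *Dnmt1*, *Sirt2*, *Sirt3*, *Hdac4* and *Kat5*). Such a separation was found for 10.5% (higher) and 8.68% (lower) of all probe sets, and for 14.6% and 14.7% of the genes above background. The share of 19.7% among the enzyme genes lies near the 19.2% of all probe sets and below the 24.1% of all genes with a probe set of their own, and their share of 21.1% among those above background lies below the 29.3% of all genes above background. These differences were not tested. None of these 12 passed the test.

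**Figure D2:**
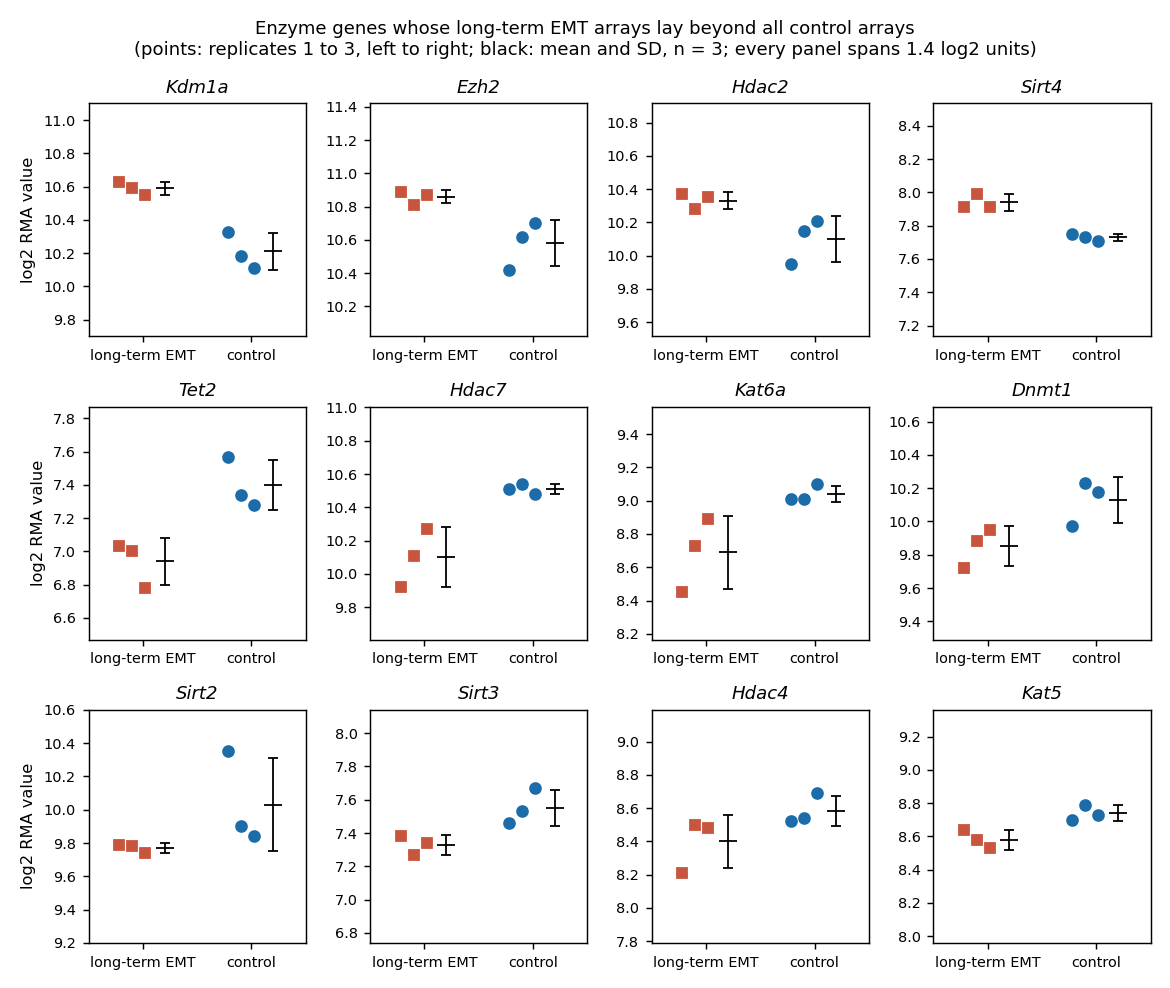
Log2 values on each array of the 12 enzyme genes whose long-term EMT arrays (squares, left) lie beyond all control arrays (circles, right), and black marks for group means and SDs (n = 3). The axes differ in level and all span the same number of log2 units. The gaps between the groups are small, and for *Sirt2* the distance of the means comes largely from control replicate 1.

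The class I deacetylases *Hdac1*, *Hdac2*, *Hdac3* and *Hdac8* are mainly nuclear. *Hdac1* and *Hdac2* belong to the Sin3, NuRD and CoREST complexes and *Hdac3* to NCoR complexes. *Hdac2* was 10.37, 10.28 and 10.35 in long-term EMT cells, against 9.95, 10.15 and 10.21 in control cells. The long-term EMT arrays lay above all controls, but the gap to control replicate 3 was small, and the log2 fold change was 0.23 (95% confidence interval 0.00 to 0.46, adjusted p = 0.36 from limma), and 0.15 without control replicate 1. *Hdac1*, its close relative in the same complexes, was 11.27, 11.17 and 11.14 in long-term EMT cells, against 11.34, 11.07 and 11.14 in control cells. Its interval of -0.23 to 0.25 leaves out a 1.5-fold change in either direction. The second probe set of *Hdac1* gave a log2 fold change of 0.02. *Hdac3*, the catalytic subunit of NCoR complexes, had an interval of -0.21 to 0.24, and *Hdac8* one of -0.37 to 0.25. The difference between *Hdac1* and *Hdac2* in response was not tested.

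The class IIa deacetylases bind MEF2 transcription factors and move between nucleus and cytoplasm on phosphorylation. All 4 had a negative log2 fold change, with a median of -0.19, but *Hdac9* (-0.02) lay below background, and without control replicate 1 *Hdac5* was 0.09 and *Hdac9* 0.07. *Hdac7* was 9.92, 10.11 and 10.27 in long-term EMT cells, against 10.51, 10.54 and 10.48 in control cells. Its controls were close together and its long-term EMT arrays were spread over 0.35 log2 units below them. The log2 fold change was -0.41 ± 0.10 (SE, 95% confidence interval -0.66 to -0.16, adjusted p = 0.141). *Hdac4* was 8.21, 8.50 and 8.48 in long-term EMT cells, against 8.52, 8.54 and 8.69 in control cells, where the nearest arrays of the groups were 0.02 log2 units apart (log2 fold change -0.19, adjusted p = 0.554, and -0.09 without long-term EMT replicate 1).

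*Hdac5* was 8.47, 8.57 and 8.14 in long-term EMT cells, against 9.17, 8.70 and 7.90 in control cells. Here the controls spanned 1.27 log2 units, the widest range of any enzyme gene, and enclosed the long-term EMT arrays. Its interval of -0.97 to 0.57 was correspondingly wide. *Hdac9*, a class IIa gene of muscle and neurons, lay below background in both groups (4.35 ± 0.15 in long-term EMT cells and 4.37 ± 0.18 in control cells, SD, n = 3 each), so that no change of it can be read.

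The class IIb gene *Hdac6*, whose product deacetylates tubulin in the cytoplasm, was 8.83, 8.81 and 8.95 in long-term EMT cells, against 8.92, 8.85 and 8.77 in control cells, with an interval of -0.18 to 0.22. *Hdac10*, a polyamine deacetylase, and *Hdac11*, the one class IV gene, had log2 fold changes of 0.02 and -0.30, and *Hdac10* had -0.19 without control replicate 1. For *Hdac11* the difference rested on control replicate 1. It was 6.72, 6.84 and 6.57 in long-term EMT cells, against 7.63, 6.75 and 6.65 in control cells, and without that array the log2 fold change was 0.01.

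Sirtuins are deacylases that need NAD. Of the 7, 5 had a negative and 2 a positive log2 fold change, with a median of -0.12. The mitochondrial members *Sirt3* and *Sirt4* had log2 fold changes of opposite sign. *Sirt3*, the main mitochondrial deacetylase, was 7.38, 7.27 and 7.34 in long-term EMT cells, against 7.46, 7.53 and 7.67 in control cells (log2 fold change -0.22 ± 0.09 SE, adjusted p = 0.33). *Sirt4* was 7.91, 7.99 and 7.91 in long-term EMT cells, against 7.75, 7.73 and 7.71 in control cells. Its arrays were tight in both groups, and its log2 fold change of 0.21 ± 0.07 (SE, adjusted p = 0.263) had an interval of 0.04 to 0.38, well inside 1.5-fold. The difference between these genes was not tested.

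*Sirt2*, a mostly cytosolic tubulin deacetylase, was 9.79, 9.78 and 9.74 in long-term EMT cells, against 10.35, 9.90 and 9.84 in control cells. The groups did not overlap, but control replicate 1 lay far above the rest, and without it the log2 fold change of -0.26 was -0.10. *Sirt1*, a nuclear deacetylase of histones and p53, and the chromatin sirtuins *Sirt6* and *Sirt7* had log2 fold changes of -0.15, 0.01 and -0.10, and *Sirt5*, a mitochondrial desuccinylase, one of -0.12. In these 4 the groups overlapped.

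Among the acetyltransferases, 4 of 6 had a negative log2 fold change and the median was -0.16. *Kat2b* (PCAF), a coactivator of the GNAT class, was 7.29, 6.93 and 6.85 in long-term EMT cells, against 7.87, 7.44 and 7.23 in control cells. The highest long-term EMT array lay just above the lowest control, and the log2 fold change of -0.49, the lowest of all enzyme genes, had an SE of 0.20 (95% confidence interval -0.96 to -0.02, adjusted p = 0.35). Without control replicate 1 it was -0.31. Its paralog *Kat2a* (GCN5) was 10.11, 10.46 and 10.67 in long-term EMT cells, against 9.90, 10.59 and 10.67 in control cells, where replicate 1 of both groups was the low one (log2 fold change 0.03, -0.22 without control replicate 1). Without that array all 6 acetyltransferases had a negative log2 fold change. That fit kept long-term EMT replicate 1, which was also low for *Kat2a* and *Kat7*, the genes whose sign changed. It lay at -0.46 and -0.13 from the mean of the other long-term EMT arrays. The family median was -0.21 without control replicate 1 and -0.11 without long-term EMT replicate 1.

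The MYST class acetyltransferases include *Kat5* (TIP60), *Kat6a* (MOZ), *Kat6b* (MORF) and *Kat7* (HBO1). *Kat6a*, which acetylates histone H3, was 8.45, 8.73 and 8.89 in long-term EMT cells, against 9.01, 9.01 and 9.10 in control cells. The long-term EMT arrays all lay below the tight controls (log2 fold change -0.35 ± 0.12 SE, 95% confidence interval -0.65 to -0.05, adjusted p = 0.287), and -0.23 without long-term EMT replicate 1. *Kat5*, which acts in DNA repair, was 8.64, 8.58 and 8.53 in long-term EMT cells, against 8.70, 8.79 and 8.73 in control cells (log2 fold change -0.16, adjusted p = 0.444). *Kat6b* and *Kat7* had log2 fold changes of -0.17 and 0.04, with overlapping groups.

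Of the 18 demethylases, 11 had a positive and 7 a negative log2 fold change, with a median of 0.02. *Kdm1a* (LSD1) is a flavin-dependent enzyme that removes methyl groups from lysine 4 of histone H3 in the CoREST complex. It was 10.63, 10.59 and 10.55 in long-term EMT cells, against 10.33, 10.18 and 10.11 in control cells. Both groups were tight and did not overlap. *Kdm1a* had the smallest p of the enzyme genes, with a log2 fold change of 0.38 (1.30-fold, SE 0.09, 95% confidence interval 0.18 to 0.59, adjusted p = 0.0981). Without control replicate 1 it was 0.45, with an adjusted p of 0.0536. With any other single array left out it lay between 0.34 and 0.40, with an adjusted p from limma between 0.221 and 0.301. Its paralog *Kdm1b* had a log2 fold change of -0.09, with overlapping groups. The difference between them was not tested.

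The *Kdm5* genes encode demethylases of trimethylated lysine 4 of histone H3. *Kdm5b*, known as a luminal gene of the breast, was 9.86, 9.98 and 9.82 in long-term EMT cells, against 9.93, 9.28 and 9.25 in control cells. Control replicate 1 lay among the long-term EMT arrays, and the other controls lay well below them. With all arrays the log2 fold change was 0.40 ± 0.19 (SE, adjusted p = 0.454). Without control replicate 1 it was 0.62 ± 0.09 (SE, adjusted p = 0.0268), which made *Kdm5b* the one enzyme gene to pass in any fit that left out 1 array. With any other single array left out its log2 fold change lay between 0.28 and 0.43, with an adjusted p from limma between 0.553 and 0.737. *Kdm5a* and *Kdm5c* had log2 fold changes of 0.18 and -0.14. *Kdm5d*, encoded on the Y chromosome, lay below background on every array, between 3.57 and 3.62.

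*Kdm7a*, whose product removes methyl groups from lysines 9 and 27 of histone H3, had the highest log2 fold change, 0.44 ± 0.27 (SE, adjusted p = 0.575). It was 9.60, 9.62 and 9.32 in long-term EMT cells, against 9.64, 9.01 and 8.56 in control cells. The controls spanned 1.08 log2 units and replicate 1 lay above all long-term EMT arrays. The log2 fold change was 0.73 without control replicate 1 (adjusted p = 0.102) and 0.19 without control replicate 3. Its second probe set gave 0.50, with the same order of the controls. The lysine 27 demethylases *Kdm6a* (UTX) and *Kdm6b* (JMJD3) had log2 fold changes of -0.05 and 0.07, with intervals of -0.24 to 0.13 and -0.29 to 0.42.

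The 6 demethylases of lysine 9, *Kdm3a*, *Kdm3b* and *Kdm4a* to *Kdm4d*, had log2 fold changes between -0.24 and 0.13, and the lysine 36 demethylases *Kdm2a* and *Kdm2b* of -0.01 and 0.05. In none of these 8 were the groups apart. *Kdm3a*, a hypoxia-induced gene, was the lowest of them, at 8.89, 8.58 and 8.47 in long-term EMT cells, against 9.25, 8.72 and 8.69 in control cells. *Kdm8*, a JmjC domain protein, was 5.78, 6.11 and 6.30 in long-term EMT cells, against 5.72, 6.54 and 6.71 in control cells. In both groups replicate 1 was the lowest, and the log2 fold change of -0.26 had an interval of -0.93 to 0.41. With 1 array left out it lay between -0.56 (without control replicate 1) and -0.07 (without control replicate 3).

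PRC2 methylates lysine 27 of histone H3 through *Ezh1* or *Ezh2*, with *Eed* and *Suz12* as core partners. All 4 had a positive log2 fold change, with a median of 0.09. *Ezh2* was 10.89, 10.81 and 10.87 in long-term EMT cells, against 10.42, 10.62 and 10.70 in control cells. The long-term EMT arrays were tight and lay above all controls, with a log2 fold change of 0.28 ± 0.10 (SE, 95% confidence interval 0.05 to 0.51, adjusted p = 0.273). *Suz12* was 10.84, 10.76 and 10.76 in long-term EMT cells, against 10.51, 10.80 and 10.83 in control cells, so that only control replicate 1 lay apart (log2 fold change 0.07, -0.03 without that array). *Eed*, which binds trimethylated lysine 27, was 8.10, 8.07 and 8.37 in long-term EMT cells, against 7.64, 8.17 and 8.38 in control cells, with control replicate 1 again the low one (log2 fold change 0.12, -0.10 without it).

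*Ezh1* was 9.59, 9.85 and 9.66 in long-term EMT cells, against 9.95, 9.58 and 9.36 in control cells, where control replicate 1 was instead the highest of all arrays. Its log2 fold change was 0.07 (95% confidence interval -0.33 to 0.47). The *Setd* genes had log2 fold changes between -0.08 and 0.15, and in none of the 8 were the groups apart. *Setd1a* and *Setd1b*, which methylate lysine 4 of histone H3 in COMPASS complexes, had log2 fold changes of 0.00 and -0.08, and *Setd2*, which trimethylates lysine 36, one of 0.00 with an interval of -0.25 to 0.25. *Setd3*, a methyltransferase of actin, had one of 0.04 and *Setd7*, which methylates lysine 4 of histone H3 and other proteins, one of 0.07. *Setd6*, which methylates the NF-κB subunit RelA, was 7.18, 7.79 and 7.86 in long-term EMT cells, against 6.90, 7.63 and 7.84 in control cells, with replicate 1 low in both groups (log2 fold change 0.15, -0.13 without control replicate 1). Of the 8 *Setd* genes 5 had a positive log2 fold change with all arrays, and 1 without control replicate 1. The family median was 0.06 with all arrays and -0.07 without control replicate 1. With any other single array left out it lay between 0.03 and 0.10.

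*Dnmt1* copies CpG methylation onto the new DNA strand after replication. It was 9.72, 9.88 and 9.95 in long-term EMT cells, against 9.97, 10.23 and 10.18 in control cells. The groups were apart by a small gap (log2 fold change -0.28 ± 0.11 SE, 95% confidence interval -0.53 to -0.02, adjusted p = 0.328). All 14 measured genes of a proliferation list also had a negative log2 fold change, with a median of -0.24. They include *Mki67* at -0.47 and *Aurkb* at -0.32, and none of them passed. The mean log2 value of the list ran from 10.75 to 10.88 on the long-term EMT arrays and from 10.85 to 11.15 on the control arrays, and its part in the value of *Dnmt1* was not tested. *Uhrf1*, which brings *Dnmt1* to replicated DNA, had a log2 fold change of -0.14.

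The de novo methyltransferases *Dnmt3a* and *Dnmt3b* had log2 fold changes of -0.04 and -0.02, with intervals of -0.38 to 0.30 and -0.33 to 0.28, and overlapping groups. *Dnmt3a* was 6.78, 7.13 and 7.05 in long-term EMT cells, against 7.22, 7.03 and 6.83 in control cells. *Dnmt3l*, their cofactor in germ cells, lay below background on every array.

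The Tet enzymes oxidise methylated cytosine, the first step of active demethylation. *Tet2* was 7.03, 7.0 and 6.78 in long-term EMT cells, against 7.57, 7.34 and 7.28 in control cells. All long-term EMT arrays lay below all controls, and the log2 fold change was -0.46 ± 0.11 (SE, 95% confidence interval -0.74 to -0.18, adjusted p = 0.133). It was -0.37 without control replicate 1. *Tet3* was 7.43, 7.50 and 7.53 in long-term EMT cells, against 7.45, 7.49 and 7.63 in control cells, and its interval was -0.24 to 0.16. *Tet1* lay below background with all of its 3 probe sets (means of 4.15 in long-term EMT cells and 4.09 in control cells for the one with the highest mean). The difference between *Tet2* and *Tet3* was not tested.

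Complex partners and other chromatin genes were read from lists outside the families above. Of 99 measured, 1 rose, 0 fell and 98 did not pass, with a median log2 fold change of 0.02. The 1.01% that passed compares with 2.96% of all genes with a probe set of their own. Of the genes above background 4.14% passed. The count therefore says nothing particular about these lists, and the differences in share were not tested. The one that rose was *Rcor2*, a CoREST scaffold that binds *Kdm1a*. It was 8.75, 8.67 and 8.72 in long-term EMT cells, against 8.20, 7.71 and 7.83 in control cells. All long-term EMT arrays lay well above the controls, a 1.74-fold difference (log2 fold change 0.80 ± 0.14 SE, adjusted p = 0.043 from limma). With 1 array left out *Rcor2* passed only without control replicate 1 (0.94, adjusted p = 0.0073), and its adjusted p in the other 5 such fits lay between 0.114 and 0.165. It did not pass by the methods' t-test after Benjamini-Hochberg adjustment (adjusted p = 0.179). Nor did it pass from limma with the replicate number as a block (adjusted p = 0.0654).

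The related scaffold *Rcor3* was 9.73, 9.83 and 9.78 in long-term EMT cells, against 9.41, 9.47 and 9.30 in control cells (log2 fold change 0.39 ± 0.08 SE, adjusted p = 0.0796), and *Rcor1* had a log2 fold change of 0.03. *Tbl1xr1*, a subunit of NCoR complexes, was 9.97, 9.85 and 9.75 in long-term EMT cells, against 10.43, 10.40 and 10.38 in control cells. Its adjusted p was 0.0323, but its log2 fold change of -0.55 did not reach 1.5-fold. *Sin3a*, the scaffold of the Sin3 complex, had a log2 fold change of 0.03, and the broad acetyltransferases *Crebbp* and *Ep300* of -0.06 and -0.23.

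Of 14 genes of Polycomb repressive complex 1 none passed, with log2 fold changes between -0.59 (*Cbx7*, adjusted p = 0.208) and 0.36 (*Pcgf3*, adjusted p = 0.0874). The 6 PRC2 accessory genes lay between -0.03 and 0.26 (*Mtf2*), the 23 other lysine methyltransferases between -0.30 and 0.33, and the 7 arginine methyltransferases between -0.11 and 0.24. Other acetyltransferases lay between -0.44 (*Ncoa1*) and 0.05, other demethylases between -0.19 and 0.45 (*Jmjd4*), and bromodomain readers between -0.13 and 0.33. *Gadd45a*, a DNA damage gene also placed in DNA demethylation, was 8.40, 8.84 and 8.03 in long-term EMT cells, against 8.66, 6.93 and 6.88 in control cells. Control replicate 1 lay among the long-term EMT arrays, and *Gadd45a* passed only without it (1.52, adjusted p = 0.0331).

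**Figure D3:**
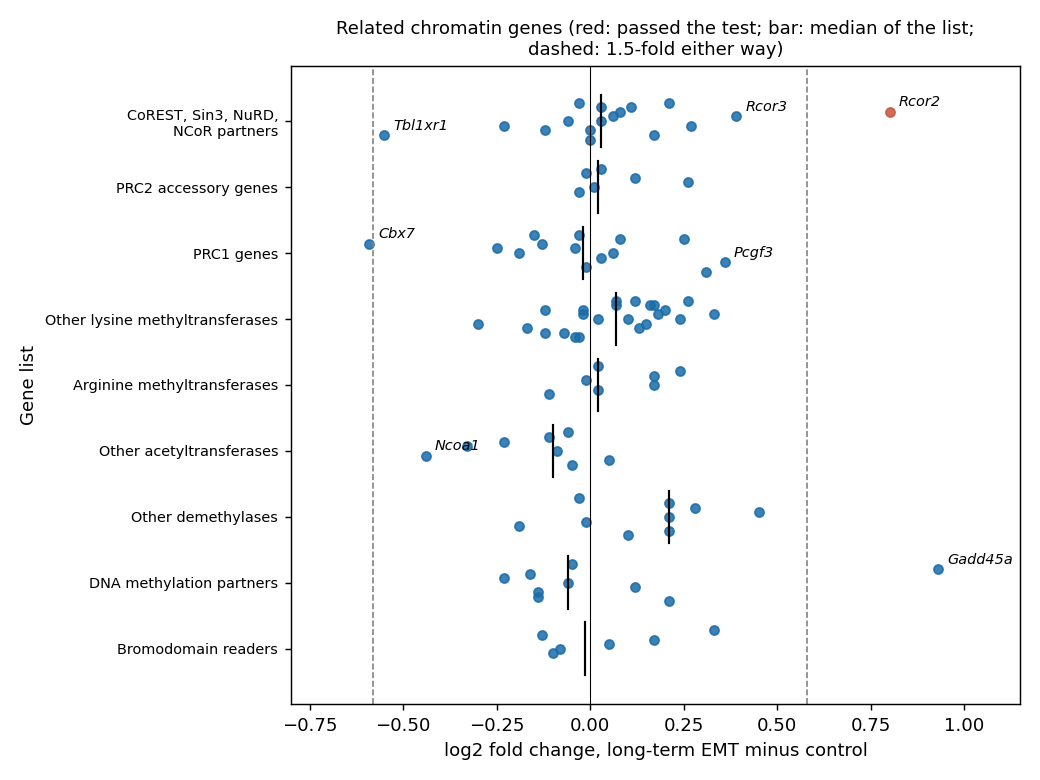
Log2 fold change, long-term EMT minus control, of 99 related chromatin genes by list (points), with the median of each list (black bar) and 1.5-fold either way (dashed lines). *Rcor2* (red, 0.80) passed the test with all arrays, though in only 1 of the 6 fits with 1 array left out, while *Gadd45a* and *Cbx7* lie beyond a dashed line without passing.

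Most enzyme genes varied more between the control arrays than between the long-term EMT arrays, as did most genes on the array. The SD was larger among controls for 41 of the 61 (67.2%), against 59.8% of all genes with a probe set of their own. Above background it was 68.4% of the enzyme genes, against 65.3% of all genes. These differences were not tested. Control replicate 1 lay more than 0.5 log2 units from the mean of control replicates 2 and 3 for 12 enzyme genes, 6 above (*Hdac11*, *Hdac5*, *Kdm7a*, *Kdm5b*, *Kdm3a* and *Kat2b*) and 6 below (*Kdm8*, *Setd6*, *Kat2a*, *Hdac10*, *Eed* and *Setd4*). In 7 of these 12 control replicate 3 also lay more than 0.5 log2 units from the mean of the other controls. That mean includes control replicate 1, so part of the distance comes from that array. For *Hdac11* control replicates 2 and 3 were close, at 6.75 and 6.65. For *Hdac5* control replicate 3 was the farther one, at -1.03 against 0.87 for control replicate 1. The 12 are 21.1% of the enzyme genes above background, against 20% of all genes above background. For all 6 that were low in control replicate 1, long-term EMT replicate 1 was also below the mean of long-term EMT replicates 2 and 3, and for 5 of the 6 high ones it was above. These counts are by sign only. The distances for the high ones were 0.40 (*Kat2b*), 0.37 (*Kdm3a*), 0.13 (*Kdm7a*), 0.12 (*Hdac5*), 0.01 (*Hdac11*) and -0.04 (*Kdm5b*). For the low ones they ran from -0.65 (*Setd6*) to -0.12 (*Eed*). No such share was taken over all genes, so this agreement in sign cannot be called particular to the enzyme genes. Over the 61 genes control replicate 1 correlated with control replicates 2 and 3 at 0.983 and 0.971. With long-term EMT replicates 1, 2 and 3 it correlated at 0.988, 0.984 and 0.975, so that the groups interleaved. Over all probe sets both controls lay above the long-term EMT arrays, at 0.987 and 0.984 against 0.979, 0.978 and 0.975. These correlations are across genes, which are not independent replicates.

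**Figure D4:**
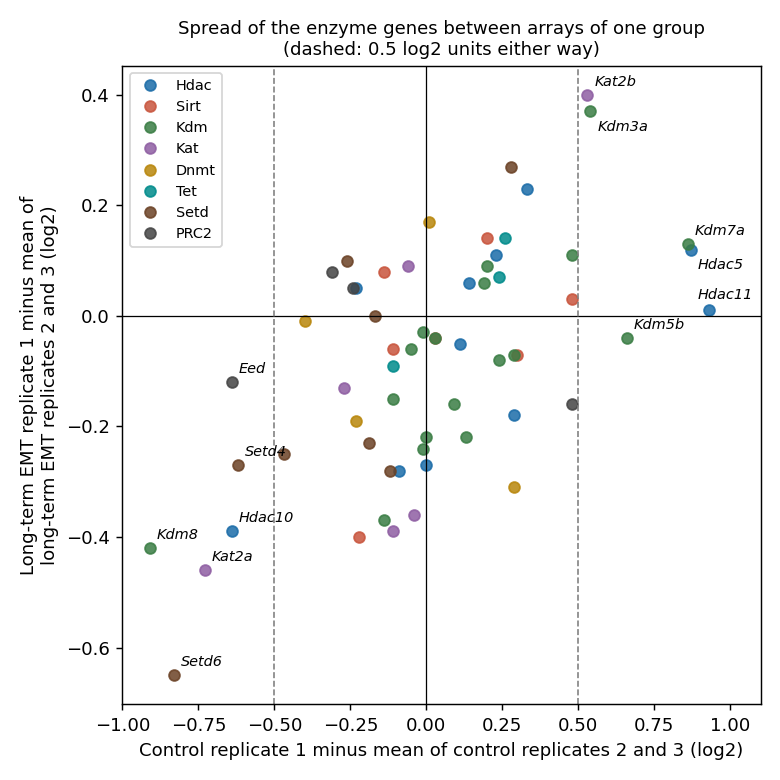
For each of the 61 enzyme genes, the distance of control replicate 1 from the mean of the other controls (x axis, log2 units) and of long-term EMT replicate 1 from the mean of the other long-term EMT arrays (y axis, log2 units), coloured by family. The 12 named genes lie beyond 0.5 log2 units on the x axis, and those low in control replicate 1 are low in long-term EMT replicate 1 as well.

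Of the 61 genes, 11 had more than 1 probe set, with 12 further probe sets in all. None of the 12 passed (smallest adjusted p 0.577), and the largest distance in log2 fold change from the probe set read was 0.20, for *Setd1a*. In 7 of the 12 the sign was opposite, with neither value beyond 0.20 in size.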

How the data were processed

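RNA from 6 samples, 3 of long-term EMT and 3 of control EpRas cells, was hybridized to MoGene-1_1-st-v1 arrays. The authors ran RMA (Robust Multi-array Average) on the scans, using Expression Console by Affymetrix (version not given in the sources used here), and the deposited values are log2 values with 2 decimals for 35556 probe sets. RMA equalises the arrays, so that a shift common to all genes cannot be seen, and it compresses changes of dim genes.

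Values were used as deposited. Genes were named from the platform annotation, in which 21218 probe sets have 1 symbol, 1881 several and 12457 none. A gene was read from its probe set with the highest mean. Members were those with a symbol of the named families, and 2 probe sets that share a *Kat* symbol with another gene were left out. The members and lists were chosen with earlier results of these data known. The linear model of limma (version 3.58.1, under R 4.3.3, with eBayes) was fitted to all 35556 probe sets, its p-values were adjusted by Benjamini-Hochberg, and every p-value of a single gene comes from it unless another test is named. Confidence intervals came from the same fit, and were added after the data were examined. The fit was checked on simulated arrays.

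Named genes were those that passed, the highest and lowest of each family, the 10 smallest p-values, *Hdac1* to *Hdac6*, the *Dnmt*, *Tet* and PRC2 genes, members called without 1 array and related genes that passed. Further genes are examples picked with their values known. Alternative settings were equal array medians, a second quantile normalization, no dim probe sets, a replicate block, a trended and robust prior, no fold threshold, the methods' t-test, the other probe sets of a gene, 2 further background percentiles and each array omitted in turn. The number of arrays limits the precision.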

Additional observations from a re-analysis of the deposited data

How the results depend on the processing

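None of the 61 enzyme genes passed in either direction under any setting run, except that *Kdm5b* was 1 higher gene without control replicate 1 (0 to 1 over the fits with 1 array left out). The count of related chromatin genes that rose was 0 with the methods' t-test after Benjamini-Hochberg and 0 with the replicate block, where *Rcor2* had the same 0.80 and an adjusted p of 0.0654, and 0 to 2 with 1 array left out. *Rcor2* ran between 0.70 and 0.94 in these fits, and its adjusted p over all alternatives between 0.00585 (the t-test without adjustment, so a raw p) and 0.179. The count that fell was 1 with the t-test's unadjusted p and 1 with no fold threshold. The labels do not say whether arrays of the same replicate number are pairs, and the values do not settle it. The deviations of same-numbered arrays correlated at 0.19, 0.02 and 0.25, and those of differently numbered arrays at -0.27 to 0.14. With the replicate block 256 probe sets rose and 278 fell in all, where 353 and 330 did without it. Over all probe sets the t-test gave 638 and 688 unadjusted and 43 and 26 adjusted, and leaving out 1 array gave 107 to 472 and 98 to 482, the highest without control replicate 1. The number of enzyme genes with an interval within 1.5-fold was 40 to 50. The median of the sirtuins ran between -0.14 and -0.08 with 1 array left out, and no other family median moved beyond the spread of the replicates. Without control replicate 1 the sign of 14 of the 61 genes changed, and the median of the *Setd* genes was -0.07 and that of the *Hdac* genes 0.05, where they were 0.06 and -0.02 with all arrays.

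The sign of 14 named genes changed under some setting, and their size with all arrays was at most 0.20. With equal array medians *Hdac1* was -0.02, *Hdac3* -0.01 and *Hdac6* -0.01. With the dimmest probe set of a gene *Eed* was -0.07, *Setd6* -0.03, *Tet1* -0.12 and *Tet3* 0.11, and with the mean over probe sets *Tet3* was 0.04. With 1 array left out the lowest and highest log2 fold changes were -0.14 and 0.06 for *Dnmt3a*, -0.16 and 0.06 for *Dnmt3b*, -0.10 and 0.28 for *Eed*, -0.07 and 0.23 for *Ezh1*, and -0.05 and 0.09 for *Hdac1*. They were -0.03 and 0.07 for *Hdac3*, -0.54 and 0.09 for *Hdac5*, -0.03 and 0.05 for *Hdac6*, -0.05 and 0.10 for *Kat7*, and -0.13 and 0.02 for *Setd1b*. They were -0.13 and 0.37 for *Setd6*, -0.03 and 0.13 for *Suz12*, -0.02 and 0.14 for *Tet1*, and -0.07 and 0.02 for *Tet3*. The cause of these changes was not tested. The SEs of the enzyme genes ran from 0.07 to 0.32, with a median of 0.11. Differences of that size, or with an interval that includes 0, cannot be read at this number of arrays.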
